A study of Homo sapiens with 18 samples.

Results

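The 6 libraries described here come from SNT-16, a cell line of NK/T cell lymphoma: 3 were made after 12 h with icaritin and 3 after 12 h with DMSO, the solvent that serves as the control. They were chosen by their titles, which carry the line, the arm, the time and a replicate number from 1 to 3, and they are 6 of the 18 libraries of the series. The other 12 libraries come from the lines SNT-8 and SNK-10 under the same treatments. They enter the fit that sets the scaling, the genes tested and the spread behind each p-value. Their own levels and changes are used only where a difference from SNT-16 was tested. All groups are labelled with the wild-type genotype. The labels give no dose of icaritin, and nothing in them says that the replicates were separate cultures. The p-values thus reflect no more than how far the 18 libraries scatter within their groups, which may be technical. All SNT-16 levels and changes rest on a single cell line.

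Icaritin is a flavonoid with a prenyl side chain, obtained from plants of the genus Epimedium. In its title the series names PLK1, a polo-like kinase that drives entry into and passage through mitosis, together with the DNA damage response and the GELOX regimen, which combines gemcitabine, oxaliplatin and asparaginase. NK/T cell lymphoma is a tumour of cytotoxic lymphocytes that carries Epstein-Barr virus. Cytotoxic lymphocytes kill target cells with granules of perforin and granzymes and with death ligands, and they depend on cytokine receptors that signal through JAK kinases and STAT factors.

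The SNT-16 libraries held between 9629842 and 9921331 expected counts, the authors' estimate of the fragments of each gene, and listed between 17159 and 17353 genes each. Levels are given as CPM, counts scaled to one common library size with TMM factors, and changes as log2 fold changes of icaritin over DMSO with their standard error (SE). A gene is said to have risen or fallen where its p-value from edgeR's quasi-likelihood test, adjusted after Benjamini and Hochberg for the 14396 tested genes, was under 0.05. The genes of mitochondrial ribosomal RNA, RNR1 and RNR2, took between 0.900% and 0.963% of the counts in the DMSO libraries and between 1.78% and 1.90% in the icaritin libraries.

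Markers of cytotoxic lymphocytes were present. Of 14 NK and cytotoxic markers, 12 reached 1 FPKM, the authors' level scaled by gene length and depth, in the DMSO libraries, led by GZMB and NKG7, and of 14 T cell markers 9 did. The T cell genes present included CD3D, CD3E, CD3G, CD247, CD2, ZAP70 and LAT. LCK, CD4, CD8A, CD5 and TCF7 stayed under 1 CPM in every SNT-16 library. So did GNLY, TYROBP and FCER1G among the NK and cytotoxic markers. A mean of 10 CPM in the DMSO libraries was reached by 9 of the 14 NK and cytotoxic markers and 8 of the 14 T cell markers. The summed level of the 14 T cell markers went from between 1195 and 1223 CPM to between 971 and 1027 CPM, and that of the 14 NK and cytotoxic markers from between 3081 and 3174 CPM to between 2985 and 3106 CPM. The 13 B and plasma cell markers summed to between 176 and 182 CPM with DMSO and between 101 and 108 CPM with icaritin. Most of that sum was MZB1. PAX5 stood at 14.4, 13.9 and 13.6 CPM in the DMSO libraries and fell by a log2 fold change of -0.42. EBF1 was at 3.77, 4.46 and 2.67 CPM there, while CD79B, CD22 and FCRLA were at 0. The 15 myeloid markers summed to between 47.8 and 51.0 CPM and between 51.0 and 55.7 CPM, with SPI1, MPO and S100A8 among the 7 at 0 in all 6 libraries. The 4 at 1 FPKM or more in the DMSO libraries were LYZ, CSF1R, CD68 and ITGAM. ITGAM, at 15.4, 14.7 and 14.9 CPM with DMSO, rose by 0.31. The 14 stromal, endothelial and epithelial markers summed to between 9.31 and 13.8 CPM and between 16.5 and 21.3 CPM. What these shifts contribute to the values below was not tested. In bulk RNA, fewer cells of a type and less RNA per cell cannot be told apart.

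PLK1 stood at 247, 259 and 245 CPM in the DMSO libraries and 65.8, 78.4 and 80.0 CPM in the icaritin libraries. The groups did not overlap, and the lowest DMSO library held about 3 times the CPM of the highest icaritin library. The log2 fold change was -1.74 (adjusted p = 2.66e-06, SE 0.176). Across all tested genes, 6051 passed the threshold, which is 42.0%, with 3053 higher after icaritin (21.2%) and 2998 lower (20.8%). Most of these changes were small: the median absolute log2 fold change of the 6051 genes was 0.396, and 519 genes (3.61%) changed at least 2-fold, 294 upwards (2.04%) and 225 downwards (1.56%). The median log2 fold change of all tested genes was 0.017, and 10% of them lay under -0.514 and 10% above 0.548. The icaritin libraries did not overlap the DMSO libraries for 7584 genes (52.7%), of which 5908 also passed the test. Counts of list members given below stand beside 21.2% risen and 20.8% fallen over all tested genes.

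**Figure D1:**
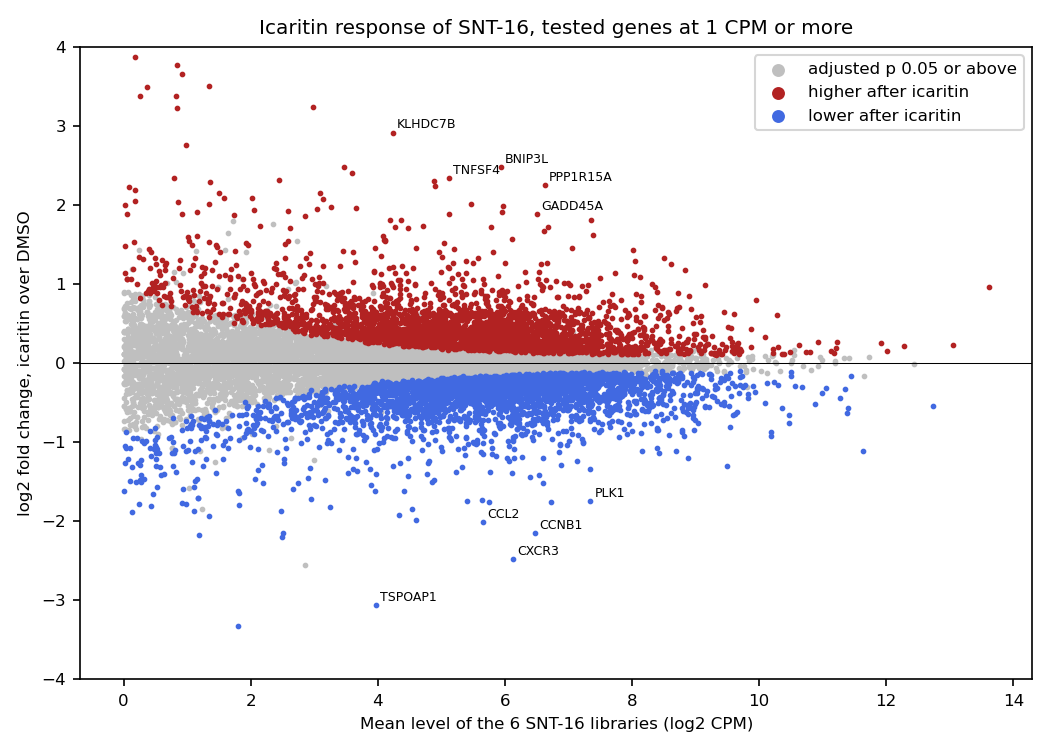
Each point is a tested gene with at least 1 CPM on the mean of the 6 SNT-16 libraries, drawn at that mean (x axis, log2 CPM) and its log2 fold change of icaritin over DMSO (y axis). Red and blue points passed the threshold upwards and downwards, and the labelled genes, among them TSPOAP1, CCNB1 and KLHDC7B, are among the largest changes at 10 CPM or more; 2 genes lie beyond the y axis limits of 4 and -4.

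Among genes with at least 10 CPM on the mean of the 6 libraries and no overlap between the groups, the 15 largest rises held several stress and growth arrest genes. DDIT3, the transcription factor CHOP of the integrated stress response, stood at 27.4, 23.1 and 25.3 CPM in the DMSO libraries and 100.5, 103 and 95.5 CPM in the icaritin libraries. All icaritin libraries lay above all DMSO libraries, with a log2 fold change of 1.98 (adjusted p = 9.14e-23, SE 0.0743). The gene overlaps MARS1 in the annotation, at 296 CPM, which rose by 0.59, so it is uncertain which of their reads belong to which gene. GADD45A, a p53-regulated brake on the cell cycle after stress, was at 39.6, 35.7 and 41.2 CPM in the DMSO libraries and 148, 139 and 144 CPM in the icaritin libraries. That is a log2 fold change of 1.89 (adjusted p = 3.9e-07, SE 0.158). ARRDC3, an arrestin-related adaptor, was at 13.7, 14.7 and 16.2 CPM in the DMSO libraries and 56.1, 53.1 and 55.5 CPM in the icaritin libraries, and CCNG2, a cyclin that rises in cells leaving the cycle, at 9.79, 9.51 and 10.5 CPM in the DMSO libraries and 50.3, 48.1 and 48.9 CPM in the icaritin libraries. Their log2 fold changes were 1.88 (adjusted p = 1.51e-19, SE 0.0910) and 2.30 (adjusted p = 2.93e-17, SE 0.113). SESN1, a sestrin that restrains mTORC1, was at 27.5, 26.3 and 24.0 CPM in the DMSO libraries and 99.0, 99.5 and 95.0 CPM in the icaritin libraries, a log2 fold change of 1.92 (adjusted p = 5.72e-10, SE 0.120).

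The remaining large rises had varied functions. BNIP3L, a mitophagy receptor, was at 21.2, 17.5 and 17.3 CPM in the DMSO libraries and 108, 104 and 100.4 CPM in the icaritin libraries. NECTIN4, a cell adhesion protein, was at 17.3, 20.4 and 14.8 CPM in the DMSO libraries and 73.2, 71.7 and 66.9 CPM in the icaritin libraries. TNFSF4, the OX40 ligand, was at 11.6, 12.2 and 10.4 CPM in the DMSO libraries and 55.8, 58.6 and 59.5 CPM in the icaritin libraries. For each, every icaritin library exceeded every DMSO library by at least 3 times, and the log2 fold changes were 2.48 (adjusted p = 9.37e-07, SE 0.225), 2.01 (adjusted p = 2.04e-07, SE 0.170) and 2.35 (adjusted p = 1.87e-06, SE 0.228). ABCA4, a lipid transporter best known from the retina, rose from low levels, 5.10, 5.05 and 5.35 CPM, to 18.5, 22.2 and 19.8 CPM. KLHL24, a substrate adaptor of a ubiquitin ligase, went from 6.63, 10.4 and 7.23 CPM to 28.2, 27.4 and 30.0 CPM, and ABHD4, a lipid hydrolase, from 2.85, 3.67 and 3.56 CPM to 19.6, 19.1 and 17.9 CPM. The log2 fold changes of these 3 genes were 1.96, 1.82 and 2.48. The 15 were completed by KLHDC7B, TP53I3, PPP1R15A and RGS1, a brake on G protein signalling, with log2 fold changes between 2.24 and 2.92.

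The 15 largest falls took in mitotic, chemokine and cytokine genes. KIF20A, a kinesin needed for cytokinesis, was at 74.4, 75.9 and 79.0 CPM in the DMSO libraries and 23.7, 23.3 and 22.2 CPM in the icaritin libraries. All icaritin libraries lay under all DMSO libraries, a log2 fold change of -1.73 (adjusted p = 1.69e-20, SE 0.0778). CDC20, the activator of the anaphase-promoting complex, was at 161, 167 and 163 CPM in the DMSO libraries and 45.8, 50.3 and 49.1 CPM in the icaritin libraries, and CCNB1, cyclin B1, at 144, 148 and 147 CPM in the DMSO libraries and 31.9, 33.1 and 33.3 CPM in the icaritin libraries. Neither gene had overlapping groups, and the log2 fold changes were -1.76 (adjusted p = 3.52e-16, SE 0.0772) and -2.16 (adjusted p = 2.44e-09, SE 0.126). SNHG3, a host of small nucleolar RNAs, was at 85.3, 82.2 and 82.3 CPM in the DMSO libraries and 23.4, 26.4 and 23.8 CPM in the icaritin libraries, a log2 fold change of -1.76 (adjusted p = 2.44e-21, SE 0.0747). It overlaps RCC1 at 131 CPM in the annotation, which fell by -0.67. IFI44L, an interferon-stimulated gene, was at 71.3, 62.7 and 61.9 CPM in the DMSO libraries and 17.8, 21.1 and 19.6 CPM in the icaritin libraries. OSM, the cytokine oncostatin M, was at 23.5, 23.0 and 23.6 CPM in the DMSO libraries and 6.43, 10.3 and 6.02 CPM in the icaritin libraries. The log2 fold changes were -1.74 (adjusted p = 3.37e-15, SE 0.103) and -1.62 (adjusted p = 1.2e-10, SE 0.142).

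CXCR3, the receptor for interferon-induced chemokines on activated lymphocytes, was at 114, 122 and 119.7 CPM in the DMSO libraries and 17.9, 22.8 and 22.8 CPM in the icaritin libraries, and the chemokine CCL2 at 81.1, 75.7 and 84.8 CPM in the DMSO libraries and 18.7, 19.5 and 21.4 CPM in the icaritin libraries. Both fell, with log2 fold changes of -2.48 (adjusted p = 2.05e-11, SE 0.121) and -2.02 (adjusted p = 5.72e-18, SE 0.0886). TSPOAP1 fell furthest of the 15, from 31.8, 25.4 and 26.9 CPM to 4.19, 2.07 and 3.75 CPM. SLC39A10, a zinc importer, went from 38.8, 35.7 and 34.2 CPM to 9.65, 11.4 and 8.98 CPM. Among the rest, HPDL was at -1.99, TANC2 at -1.92, BRINP2 at -1.62 and PIF1, a DNA helicase, at -1.55 on the log2 scale.

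**Figure D2:**
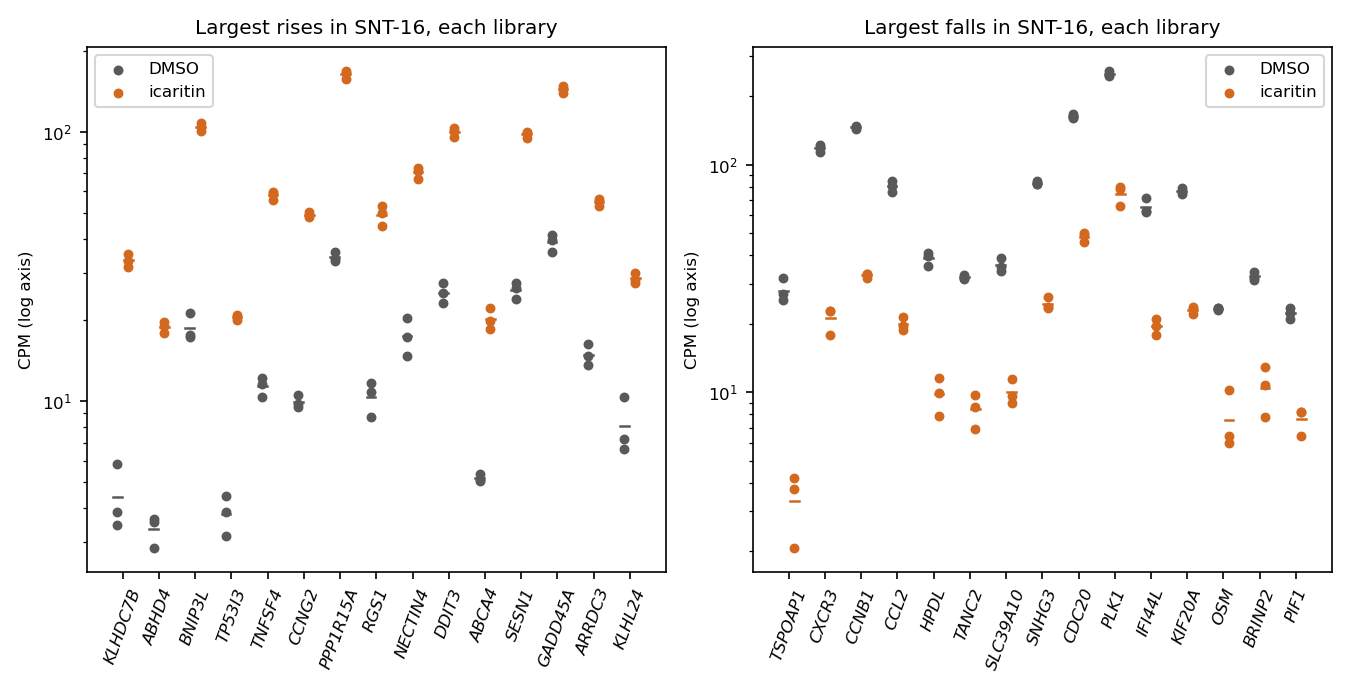
CPM of the 15 largest rises (left) and 15 largest falls (right) in each SNT-16 library, on a log axis; grey points are the 3 DMSO libraries, orange points the 3 icaritin libraries, and short lines the group means. For each gene the 2 groups are separate, as in PLK1, where the icaritin libraries lie between 65.8 and 80.0 CPM and the DMSO libraries above 240 CPM.

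ATF4 is the transcription factor of the integrated stress response. When eIF2alpha is phosphorylated, general translation falls, ATF4 protein is made, and it switches on genes for amino acid uptake and synthesis. Of the 33 tested members of this list, 28 rose, 0 fell (1 without DMSO replicate 2 or icaritin replicate 2) and 5 did not pass, with a median log2 fold change of 0.70 beside 0.017 for all genes. Among genes of serine and one-carbon metabolism PSAT1 rose by 1.32, MTHFD2 by 1.18, SHMT2 by 0.70, and PSPH by 0.44. CTH, which makes cysteine, stood at 34.9, 35.4 and 34.9 CPM in the DMSO libraries and 104, 102 and 105 CPM in the icaritin libraries, a log2 fold change of 1.57 (adjusted p = 8.38e-22, SE 0.0637). The icaritin libraries held close to 3 times the DMSO level. Among the amino acid transporters that rose were SLC7A11 for cystine by 1.02, SLC3A2, its heavy chain, by 0.80 and SLC7A5 for large neutral amino acids by 0.61. The factors themselves were at 1.62 for ATF3, 0.71 for ATF4, 0.90 for CEBPB and 0.45 for ATF5. The feedback genes TRIB3, SESN2 and PPP1R15A rose by 1.67, 1.81 and 2.25. SESN2, a leucine-sensing sestrin that ATF4 and p53 both regulate, was at 73.0, 72.7 and 71.8 CPM in the DMSO libraries and 233, 263 and 266 CPM in the icaritin libraries.

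ASNS makes asparagine, the amino acid that asparaginase removes, and it is a textbook ATF4 target. In SNT-16 it stood near the limit of detection, at 1.73, 1.49 and 1.29 CPM in the DMSO libraries and 1.95, 0.691 and 1.38 CPM in the icaritin libraries. The groups overlapped and the log2 fold change was -0.16 (adjusted p = 0.721). GDF15, a secreted stress factor, had 0 counts in each DMSO library and 5, 4 and 8 counts in the icaritin libraries. Against a floor of 3 counts over the DMSO group, these 17 counts were at least 5.67-fold higher, and at that bound, a log2 value of 2.5, GDF15 stays above the medians of both lists that hold it, ATF4 and p53.

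Aminoacyl-tRNA synthetases join amino acids to tRNAs, and several of the cytosolic ones are ATF4 targets. The cytosolic list divided: of 23 tested members, 12 rose, 8 fell and the other 3 did not pass. AARS1, for alanine, was at 241, 229 and 236 CPM in the DMSO libraries and 441, 436 and 439 CPM in the icaritin libraries, a log2 fold change of 0.90 (adjusted p = 2.8e-20, SE 0.0412). GARS1 rose by 0.85, CARS1 by 0.83, SARS1 by 0.74 and IARS1 by 0.60. In the opposite direction FARSA, a phenylalanine synthetase subunit, was at 126, 142 and 127 CPM in the DMSO libraries and 75.5, 75.1 and 71.1 CPM in the icaritin libraries, a log2 fold change of -0.83 (adjusted p = 7.68e-15, SE 0.0586), and VARS1 was at -0.67, RARS1 at -0.44 and KARS1 at -0.35. Each of these groups was separate from its control. The mitochondrial synthetases mostly fell: of 17 tested, 2 rose (1 without any library but DMSO replicate 3), 10 fell and the other 5 did not pass, with a median of -0.24. MARS2 was at -1.26 and LARS2 at -0.44, while HARS2 rose by 0.33.

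ATF4 binds with C/EBP partners to a composite element whose core is TGATGNAA, and 4 stretches of promoter are shown because they carry it in genes that rose. They come from RefSeq on GRCh38.p14, run 5′ to 3′ on the strand of the gene, and capitals mark the core, which reads TTNCATCA where it lies on the other strand. The stretch of ATF3 is at chr1:212565190-212565249, plus strand, that of HERPUD1 at chr16:56931940-56931999, plus strand, that of AARS1 at chr16:70289660-70289719, minus strand and that of IARS1 at chr9:92293698-92293757, minus strand.
ATF3: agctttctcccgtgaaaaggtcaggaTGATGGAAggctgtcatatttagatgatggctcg
HERPUD1: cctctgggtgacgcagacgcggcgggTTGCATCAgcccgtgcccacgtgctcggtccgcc
AARS1: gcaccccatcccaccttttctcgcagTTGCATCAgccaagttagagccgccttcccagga
IARS1: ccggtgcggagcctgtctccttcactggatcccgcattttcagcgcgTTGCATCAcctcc
None of the motifs searched here and below contains another. In windows from 250 bases before to 50 bases after the gene start, searched on both strands, the core was in 6 of the 10 cytosolic synthetases that rose and had a promoter in the table (AARS1, CARS1, IARS1, MARS1, NARS1 and TARS1), which is 60%. It was in 4 of 23 risen members of the ATF4 list (17.4%) and in 3.67% of all promoters in the table. Among promoters of tested genes the share was 1.84%. A match describes the letters only and is not evidence of binding.

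The p53 protein halts the cell cycle, aids repair and can start cell death, and the RNA of its targets is a common readout. Of 31 tested targets, 26 rose, 0 fell and the other 5 did not pass, with a median log2 fold change of 0.87. MDM2, the ubiquitin ligase that p53 induces and that degrades it, was at 368, 378 and 392 CPM in the DMSO libraries and 778, 733 and 744 CPM in the icaritin libraries. The log2 fold change was 0.99 (adjusted p = 2.27e-18, SE 0.0513). CDKN1A, the cell cycle inhibitor p21, was at 371, 398 and 360.4 CPM in the DMSO libraries and 483, 515 and 537 CPM in the icaritin libraries, a smaller rise of 0.44 (adjusted p = 6.42e-08, SE 0.0559). Other rises were in CCNG1 (1.29), PPM1D, a phosphatase that turns off the damage response (1.27), FDXR (1.15), RRM2B, the p53-inducible ribonucleotide reductase subunit (1.13), and the repair genes XPC (0.67), POLH (0.71) and DDB2 (0.41). Several targets also belong to other stress programmes, SESN2 and GADD45A among them. TP53I3 overlaps FAM228B in the annotation, at 1.96 CPM, and POLH overlaps GTPBP2, which rose by 0.98.

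Genes of the BCL2 family set the threshold for mitochondrial cell death. Of 15 tested members 8 rose and 2 fell (1 without DMSO replicate 1 or 3 or icaritin replicate 2 or 3), and the rises included members of both kinds. The pro-death BH3-only genes BBC3 (PUMA) and BCL2L11 (BIM) were at 30.7, 31.8 and 35.4 CPM in the DMSO libraries and 65.5, 67.1 and 72.4 CPM in the icaritin libraries, and at 29.8, 27.5 and 25.2 CPM in the DMSO libraries and 54.7, 53.7 and 53.8 CPM in the icaritin libraries, respectively. PMAIP1 (NOXA) rose by 0.96, BBC3 by 1.07 and BCL2L11 by 0.98. The survival gene BCL2 was at 62.2, 66.6 and 61.0 CPM in the DMSO libraries and 115, 113 and 111 CPM in the icaritin libraries, a log2 fold change of 0.83 (adjusted p = 1.13e-14, SE 0.0596), and BCL2L1 and MCL1 rose by 0.30 and 0.17. All 3 icaritin libraries of BCL2 exceeded the DMSO libraries. Among 27 death receptors, caspases and inhibitors, 5 rose and 9 fell. The receptors FAS and TNFRSF10B, both p53 targets, rose by 0.87 and 0.67, and APAF1, the scaffold of the apoptosome, by 0.92. Of their ligands, FASLG stood at 9.99, 11.7 and 11.2 CPM in the DMSO libraries and 3.80, 4.94 and 4.34 CPM in the icaritin libraries, a log2 fold change of -1.33 (adjusted p = 1.08e-08, SE 0.163), and TNFSF10 (TRAIL) was at -0.48. The inhibitor BIRC3 was at -0.54 and the necroptosis effector MLKL at -0.74.

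Mitosis is run by the kinases CDK1, PLK1 and the Aurora kinases, and by the anaphase-promoting complex. Of 57 mitotic genes, 4 rose, 41 fell and the other 12 did not pass, with a median of -0.37. AURKA, the kinase that activates PLK1, was at 104, 96.8 and 99.6 CPM in the DMSO libraries and 32.6, 41.7 and 40.0 CPM in the icaritin libraries. The log2 fold change was -1.40 (adjusted p = 5.08e-06, SE 0.152), and its cofactor BORA was at -0.28. CENPE, a kinetochore motor, was at -1.41, HMMR at -1.44, DLGAP5 at -1.20 and CKS2 at -1.01. Smaller falls were in AURKB (-0.41) and PRC1, which bundles the spindle midzone (-0.21). The 4 members that rose were CDK1 (0.16), MYBL2 (0.56), LIN54 (0.47) and PKMYT1 (0.28); MYBL2 and LIN54 belong to the complex that switches mitotic genes on. The call of CDK1 was lost without DMSO replicate 3 or without icaritin replicate 3 (adjusted p = 0.133 and 0.132). FOXM1, another activator of mitotic genes, was at 249, 256 and 255 CPM in the DMSO libraries and 260.4, 263 and 269 CPM in the icaritin libraries. Its log2 fold change was 0.060 (adjusted p = 0.34), and the Ki-67 gene MKI67 was at -0.30. KIF20A overlaps CDC23 in the annotation, at 80.4 CPM, which changed by -0.14.

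Promoters of many mitotic genes carry a cell cycle gene homology region (CHR) close to the start, often with CCAAT boxes upstream of it. For genes of the list that fell, 5 stretches are shown. In CDC20 the order is the other way: a CCAAT lies 55 bases before the start and the marked TTTGAA 65 bases before it. Capitals mark TTTGAA in the first 3 and CCAAT, or ATTGG on the other strand, in the last 2. The stretches lie, in the order shown, at chr1:43358889-43358948, plus strand; at chr15:64825648-64825707, minus strand; at chr15:59105086-59105145, plus strand; at chr5:138179018-138179077, plus strand; and at chr5:160421780-160421839, plus strand.
CDC20: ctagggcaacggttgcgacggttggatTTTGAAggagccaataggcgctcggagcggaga
PIF1: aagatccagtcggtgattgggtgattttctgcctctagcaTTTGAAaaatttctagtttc
CCNB2: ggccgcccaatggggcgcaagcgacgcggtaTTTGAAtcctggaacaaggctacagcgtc
KIF20A: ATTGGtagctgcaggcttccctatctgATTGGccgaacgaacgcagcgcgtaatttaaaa
PTTG1: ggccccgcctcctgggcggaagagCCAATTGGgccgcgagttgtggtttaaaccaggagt
TTTGAA or TTCGAA was searched on both strands of the whole window described above and was found in 26 of 36 fallen mitotic genes with a promoter in the table (72.2%), against 16.6% of all promoters. CCAAT was in 29 of these (80.6%) against 35.7% of all promoters. Among promoters of tested genes TTTGAA or TTCGAA was in 12% and CCAAT in 37.3%. All these shares are descriptions of letters.

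More genes of DNA replication rose than fell. Of 54 tested, 31 rose, 7 fell and the other 16 did not pass, with a median of 0.21. Without icaritin replicate 1, 4 fell. CDT1, which loads the replicative helicase, was at 88.1, 91.5 and 92.9 CPM in the DMSO libraries and 164, 159 and 169 CPM in the icaritin libraries, and PCNA, the sliding clamp, at 638, 630.2 and 639 CPM in the DMSO libraries and 842, 878 and 881 CPM in the icaritin libraries. The groups were separate, with log2 fold changes of 0.85 (adjusted p = 6.94e-17, SE 0.0508) and 0.45 (adjusted p = 6.25e-10, SE 0.0486). The nucleotide enzymes TYMS, TK1 and RRM1 rose by 0.58, 0.59 and 0.36, and E2F1 and CCNE2 by 0.57 and 0.53. Of the helicase subunits, MCM2 rose by 0.27, and MCM3 and MCM4 did not pass, at -0.072 and -0.071. POLE2, a subunit of the leading strand polymerase, fell most in the list, to -0.69. Replication-dependent histones, whose RNA lacks a poly(A) tail, were thinly covered: 7 of 29 could be tested, and 6 of these fell, with H1-2 at -1.39 and H2BC12 at -1.10.

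Homologous recombination repairs broken chromosomes with the sister copy, and the Fanconi anaemia genes act at DNA crosslinks. Of 35 tested, 23 rose, 1 fell and the other 11 did not pass, with a median of 0.24. PALB2, which links BRCA1 to BRCA2, was at 41.3, 34.6 and 41.4 CPM in the DMSO libraries and 66.7, 65.2 and 65.6 CPM in the icaritin libraries. Every icaritin library exceeded every DMSO library, a log2 fold change of 0.75 (adjusted p = 9.62e-11, SE 0.0753). RAD54L rose by 0.63, BARD1 by 0.60, BRCA2 by 0.39 and BRCA1 by 0.23. FANCF was the member that fell, at -0.26 (adjusted p = 0.0307, SE 0.0990), a call lost without any of DMSO replicates 2 and 3 and icaritin replicates 1, 2 and 3 (adjusted p between 0.0517 and 0.271). DNA damage signalling itself was mixed: of 31 genes 8 rose, 12 fell and the other 11 did not pass, and the median was 0.028. Over all tested genes 21.2% rose and 20.8% fell. The checkpoint kinases differed, with ATR at -0.48, ATM at 0.24 and CHEK1 at 0.085 (adjusted p = 0.196). The end-joining genes XRCC6, XRCC5 and LIG4 fell, by log2 fold changes of -0.38, -0.33 and -0.59. H2AX, the histone that is phosphorylated at breaks, was at 183, 219.7 and 198 CPM in the DMSO libraries and 89.5, 101 and 107 CPM in the icaritin libraries, a log2 fold change of -1.01 (adjusted p = 0.000235, SE 0.166).

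Ribosome biogenesis takes place in the nucleolus, where RNA polymerase I transcribes ribosomal RNA and assembly factors process it, and MYC is a main activator of these genes. None of the 59 tested members rose, 55 fell and the other 4 did not pass, and the median of -0.74 was the lowest of the lists with at least 10 tested members. NOP16 was at 77.4, 76.0 and 82.4 CPM in the DMSO libraries and 30.2, 31.7 and 28.6 CPM in the icaritin libraries, a log2 fold change of -1.38 (adjusted p = 2.06e-19, SE 0.0673). NCL, nucleolin, the most abundant of them, was at 1481, 1414 and 1612 CPM in the DMSO libraries and 797, 838 and 832 CPM in the icaritin libraries, with -0.87 (adjusted p = 5.53e-10, SE 0.0672). Neither gene had overlapping groups. PPAN was at -1.51, RRS1 at -1.32, WDR3 at -1.20 and the polymerase I subunits POLR1B, POLR1C and POLR1A at -0.79, -0.86 and -0.48. MYC, which is in the list, was at 189.9, 196 and 206 CPM in the DMSO libraries and 77.5, 84.6 and 88.5 CPM in the icaritin libraries, a log2 fold change of -1.24 (adjusted p = 4.18e-12, SE 0.0765).

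MYC binds the E-box CACGTG, which is also the core of the lysosomal CLEAR element bound by TFEB and TFE3, so stretches from 3 genes that fell and 3 lysosomal genes that rose are set side by side. Capitals mark CACGTG, which reads the same on both strands. UTP14A is at chrX:129905914-129905973, plus strand, UTP20 at chr12:101280045-101280104, plus strand and UTP4 at chr16:69132589-69132648, plus strand. FNIP1 is at chr5:131797079-131797138, minus strand, RRAGC at chr1:38859852-38859911, minus strand and LAMP1 at chr13:113297179-113297238, plus strand.
UTP14A: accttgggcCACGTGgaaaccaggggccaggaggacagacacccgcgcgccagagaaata
UTP20: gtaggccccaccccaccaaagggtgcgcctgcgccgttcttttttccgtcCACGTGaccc
UTP4: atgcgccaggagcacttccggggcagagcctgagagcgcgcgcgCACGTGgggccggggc
FNIP1: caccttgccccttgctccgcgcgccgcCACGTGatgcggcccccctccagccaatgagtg
RRAGC: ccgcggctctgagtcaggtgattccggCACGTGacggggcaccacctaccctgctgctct
LAMP1: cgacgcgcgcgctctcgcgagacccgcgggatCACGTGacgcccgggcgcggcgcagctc
UTP14A, UTP20 and UTP4 fell, with log2 fold changes of -0.74, -0.63 and -0.61, and FNIP1, RRAGC and LAMP1 rose by 0.93, 0.98 and 0.47. CACGTG was in the window of 16 of 44 ribosome biogenesis genes that fell (36.4%), in 6 of 18 lysosome and autophagy genes that rose (33.3%) and in 7.43% of all promoters. Among promoters of tested genes the share was 9.8%. The same letters thus stood in front of genes that moved in opposite directions.

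Ribosomal protein genes were listed apart from the assembly factors. Of 54 cytosolic ribosomal proteins, 25 rose, 2 fell and the other 27 did not pass, with a median of 0.11. The changes were small: RPS20 rose by 0.24, RPS6 by 0.23 and RPLP0 by 0.16. Without icaritin replicate 2 or 3, 15 or 16 rose. Leaving out DMSO replicate 2 left 0 that fell, and leaving out DMSO replicate 3 or any 1 of the icaritin libraries left 1. Many of these genes have near-identical pseudogene copies, so their counts are uncertain at this size. Of 46 mitochondrial ribosomal proteins 1 rose (2 without DMSO replicate 3, 0 without icaritin replicate 3) and 25 fell, with MRPL4 at -0.76, MRPS12 at -0.80 and MRPL12 at -0.63. Among 44 nuclear subunits of oxidative phosphorylation, 3 rose, 15 fell and the other 26 did not pass. ATP5MC1, a subunit of the ATP synthase ring, was at -0.90, and SDHA rose by 0.40. The mitochondrial ribosomal RNA genes were the 2 tested of 15 mitochondrially encoded genes: RNR2 stood at 8679, 8153 and 8730.3 CPM in the DMSO libraries and 16831, 16691 and 16107 CPM in the icaritin libraries. RNR1 and RNR2 rose by 0.80 and 0.96.

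The snoRNA host genes carry small nucleolar RNAs in their introns. Of 17 tested, 6 rose and 7 fell. GAS5 was at 92.1, 90.8 and 89.5 CPM in the DMSO libraries and 141, 159 and 149 CPM in the icaritin libraries, a log2 fold change of 0.72 (adjusted p = 5.62e-12, SE 0.0622), and ZFAS1 and SNHG29 rose by 0.63 and 0.39. DANCR was at -1.20, SNHG4 at -0.86 and SNHG12 at -0.76.

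Heat shock proteins fold other proteins, HSP90 with its co-chaperones and the TRiC chaperonin among them. Of 37 tested, 2 rose (1 without DMSO replicate 1 or 2 or icaritin replicate 1 or 3), 27 fell and the other 8 did not pass, with a median of -0.49. HSPA8, the constitutive HSP70, was at 4449.7, 4331 and 4328 CPM in the DMSO libraries and 1977, 2025 and 2064 CPM in the icaritin libraries. No icaritin library reached 50% of a DMSO library, and the log2 fold change was -1.11 (adjusted p = 1.76e-21, SE 0.0465). STIP1, which links HSP70 to HSP90, was at -0.92, HSP90AB1 at -0.63, HSP90AA1 at -0.57 and DNAJB1 at -0.71. The chaperonin subunits fell from -0.86 for CCT2 to -0.32 for CCT7. HSPA9, the mitochondrial HSP70, rose by 0.25. Heat shock factor binds repeats of GAA and TTC, and 2 promoters of fallen genes are shown with such repeats in capitals, HSPA8 at chr11:123062155-123062214, minus strand and CHORDC1 at chr11:90223063-90223122, minus strand.
HSPA8: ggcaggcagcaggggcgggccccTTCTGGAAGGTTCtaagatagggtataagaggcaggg
CHORDC1: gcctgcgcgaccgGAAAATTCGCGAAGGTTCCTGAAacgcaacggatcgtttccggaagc
The heat shock element, searched on both strands as 3 alternating TTC and GAA repeats with 2 bases between them, was in the window of 3 of 24 fallen members (12.5%) and of 0.487% of all promoters. Among promoters of tested genes the share was 0.356%. CHORDC1, a co-chaperone of HSP90, was at -0.49.

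In the endoplasmic reticulum the list of chaperones and unfolded protein response genes was split, with 9 of 26 risen and 10 fallen. Among those that fell, HSPA5 (BiP), a lumenal chaperone, was at 1504, 1518 and 1555 CPM in the DMSO libraries and 796, 822 and 795 CPM in the icaritin libraries, a log2 fold change of -0.92 (adjusted p = 4.9e-19, SE 0.0463), and HSP90B1, CALR and MANF were at -0.76, -0.65 and -0.81. Another lumenal chaperone, HYOU1, did not pass. EDEM1, DNAJB9, HERPUD1 and SEC24D, which act in degradation or export, rose by 0.73, 0.97, 0.41 and 0.48, and SYVN1, a ligase of the same degradation, did not pass. Of 37 genes of the proteasome list 2 rose and 20 fell. NFE2L1, the transcription factor that induces proteasome genes, was at 234, 233 and 227 CPM in the DMSO libraries and 545, 540.2 and 560.1 CPM in the icaritin libraries, a log2 fold change of 1.25 (adjusted p = 3.43e-24, SE 0.0419). The subunits themselves moved little, with PSME3 at -0.45, PSMD3 at -0.37 and PSMD12 at -0.40.

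Cholesterol synthesis is controlled by SREBP2, which is released when sterols are low. Of 27 genes, 2 rose, 21 fell and the other 4 did not pass, with a median of -0.33. DHCR7, which makes cholesterol in a last step of the pathway, was at 95.9, 95.7 and 90.5 CPM in the DMSO libraries and 52.4, 59.9 and 54.7 CPM in the icaritin libraries. The log2 fold change was -0.76 (adjusted p = 6.79e-13, SE 0.0627), and SQLE, squalene epoxidase, was at -0.55, while SREBF2, which encodes SREBP2, did not pass. The members that rose were STARD4, a sterol carrier (0.49), and INSIG2, which retains SREBP2 (0.58). Fatty acid genes divided: FASN, fatty acid synthase, was at 577, 566 and 561 CPM in the DMSO libraries and 259, 262 and 267 CPM in the icaritin libraries, a log2 fold change of -1.11 (adjusted p = 3.42e-17, SE 0.0565). SCD was at -0.65 and ACLY at -0.40, while ACSL1 rose by 0.54 and ACACB by 0.74. In all, 6 of 20 fatty acid genes rose and 8 fell.

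Genes of glycolysis and the hypoxia response mostly rose: 20 of 32, with 2 lower (1 without DMSO replicate 1 or 2 or icaritin replicate 2 or 3) and a median of 0.34. KDM3A, a histone demethylase known from the hypoxia response, was at 32.9, 28.4 and 31.2 CPM in the DMSO libraries and 85.7, 80.5 and 79.6 CPM in the icaritin libraries, and P4HA1, a collagen hydroxylase, at 52.4, 45.8 and 50.5 CPM in the DMSO libraries and 114, 107 and 108 CPM in the icaritin libraries. Both groups were separate, with log2 fold changes of 1.41 (adjusted p = 9.58e-06, SE 0.164) and 1.15 (adjusted p = 1.86e-07, SE 0.109). PDK1, which holds pyruvate back from the mitochondria, rose by 1.54, VEGFA by 0.90 and HIF1A by 0.22. Of the glycolytic enzymes, PGK1 rose by 0.68, ALDOA by 0.33 and GAPDH by 0.21, and the glucose transporter SLC2A1 was at 0.18 (adjusted p = 0.0914).

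Lysosome and autophagy genes rose in 26 of 47 cases and fell in 2 (1 without DMSO replicate 2), with a median of 0.30. MAP1LC3B, the LC3 protein of the autophagosome, was at 114, 117 and 117 CPM in the DMSO libraries and 239, 250.3 and 244 CPM in the icaritin libraries. The log2 fold change was 1.07 (adjusted p = 1.26e-13, SE 0.0664). WIPI1, which marks early autophagosomes, rose by 1.27. The nutrient sensors RRAGC and FNIP1 rose by 0.98 and 0.93, and FLCN by 0.72. CTSD, LAMP2 and NPC1 of the lysosome rose by 0.53, 0.39 and 0.60. Of 27 genes induced by FOXO factors or starvation, 16 rose and 2 fell (1 without DMSO replicate 2 or icaritin replicate 1), and the median was 0.62. BTG1, an antiproliferative gene, was at 57.8, 66.9 and 63.5 CPM in the DMSO libraries and 119, 123 and 132 CPM in the icaritin libraries, a log2 fold change of 0.99 (adjusted p = 6.95e-16, SE 0.0638). FOXO3 rose by 0.80, TXNIP by 1.17 and CDKN1B, the inhibitor p27, by 0.49. CCNG2, SESN1, ARRDC3 and KLHL24, described above, are in this list too.

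**Figure D3:**
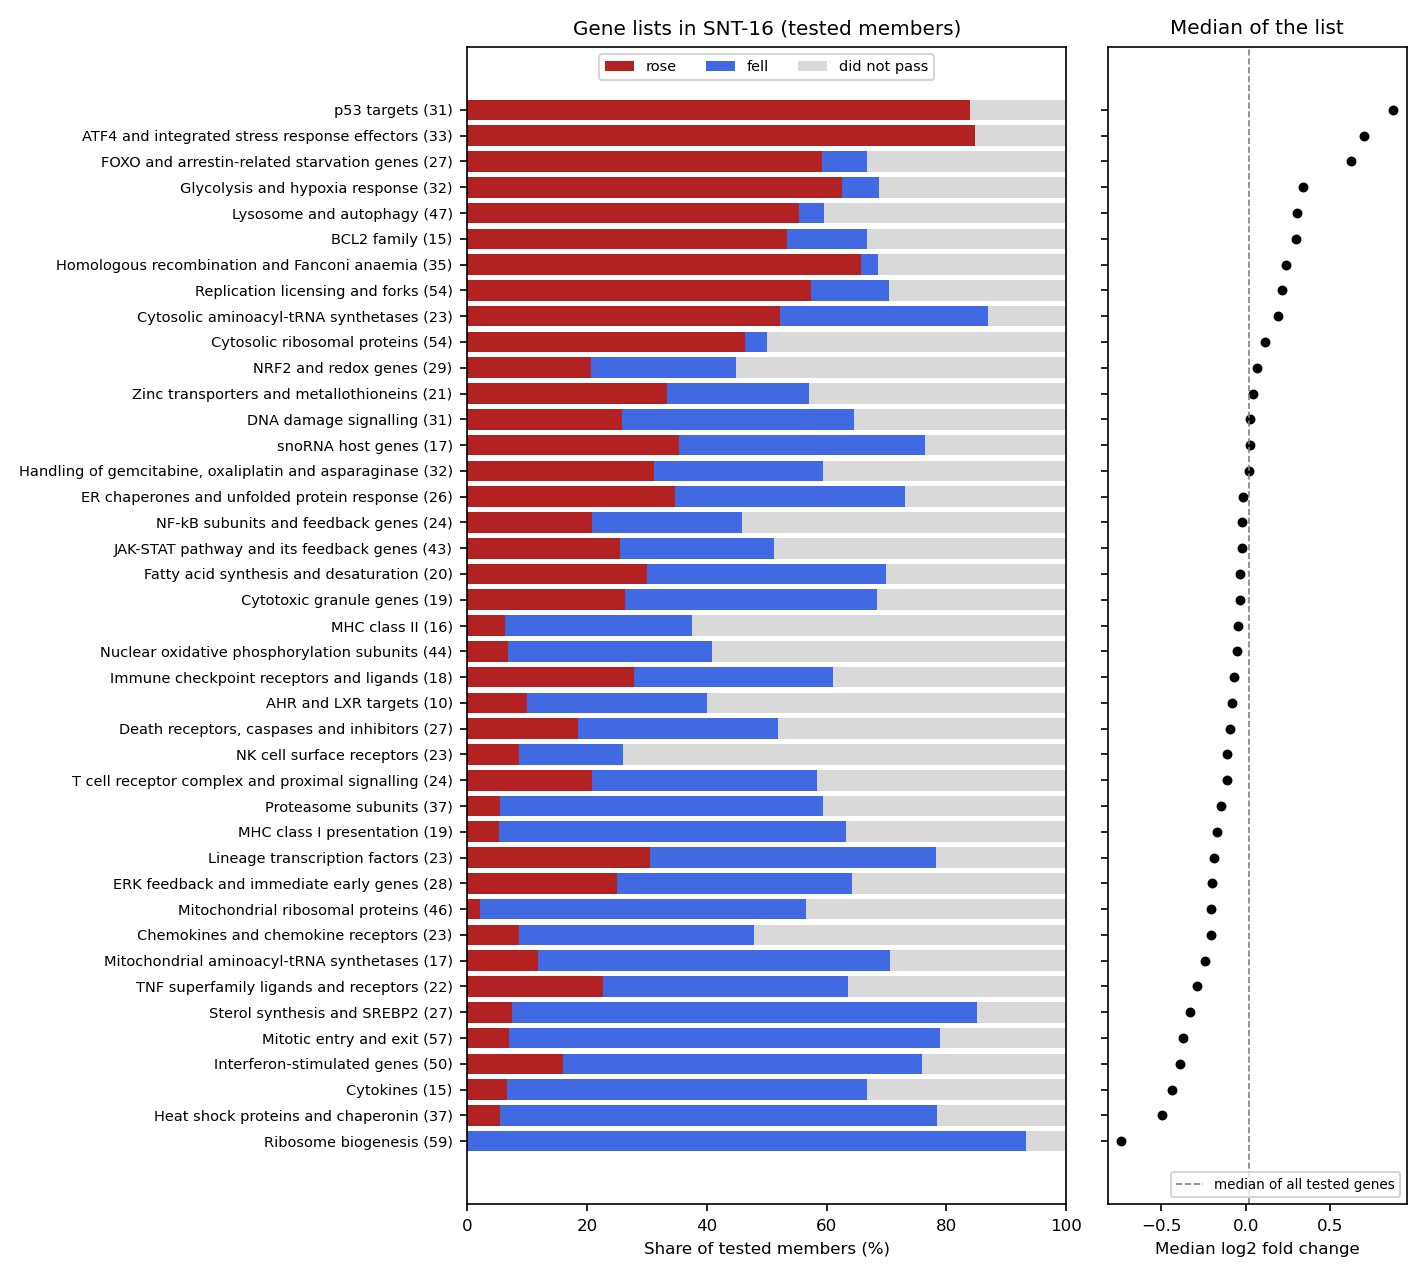
Left, the share of tested members of each gene list with at least 10 tested members (number tested in brackets) that rose, fell or did not pass in SNT-16; right, the median log2 fold change of each list, with the median of all tested genes as a dashed line. Of the lists drawn, p53 and ATF4 lie at the top with medians of 0.87 and 0.70, and ribosome biogenesis and heat shock proteins at the bottom with -0.74 and -0.49.

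Genes that define the cytotoxic lymphocyte changed unevenly. The granule genes GZMB and PRF1 were among the most abundant: GZMB was at 1678, 1650.2 and 1736 CPM in the DMSO libraries and 1854, 1889 and 1860.1 CPM in the icaritin libraries, a small rise of 0.15 (adjusted p = 0.0153, SE 0.0494). That call was lost without DMSO replicate 2 or icaritin replicate 2 (adjusted p = 0.0736 and 0.0547). PRF1, perforin, was at 811, 847 and 833 CPM in the DMSO libraries and 673, 715 and 703 CPM in the icaritin libraries, a log2 fold change of -0.25 (adjusted p = 8.44e-06, SE 0.0438). CST7, an inhibitor of granule cathepsins, rose by 0.56 and SRGN, the granule proteoglycan, by 0.39, while CTSC, which activates granzymes, was at -0.38, and 5 of 19 granule genes rose and 8 fell (5 without DMSO replicate 2, icaritin replicate 1 or icaritin replicate 2). Of 24 genes of the T cell receptor and its signalling, 5 rose and 9 fell. The risen number was 3 without DMSO replicate 1 or 2 and 2 without icaritin replicate 2. This list and the granule list stand beside 21.2% risen and 20.8% fallen among all tested genes. LCP2, the adaptor SLP-76, was at 370.4, 368 and 359 CPM in the DMSO libraries and 213, 214 and 218 CPM in the icaritin libraries, a log2 fold change of -0.77 (adjusted p = 8.48e-17, SE 0.0460). CD3G, CD3D and ZAP70 were at -0.62, -0.44 and -0.51. NK cell receptors mostly did not pass, 17 of 23, while 2 rose (1 without any library but icaritin replicate 3) and 4 fell. These stand beside the same shares of all tested genes, and 7 of the 23 had a mean under 1 CPM. SLAMF7 was at -0.35.

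Among the transcription factors of lymphocyte lineages, 7 of 23 rose and 11 fell. TBX21 (T-bet), which drives cytotoxic and interferon-gamma programmes, was at 94.1, 95.8 and 93.5 CPM in the DMSO libraries and 41.8, 38.4 and 40.3 CPM in the icaritin libraries. The icaritin libraries lay under 50% of the DMSO libraries, with a log2 fold change of -1.23 (adjusted p = 1.75e-18, SE 0.0644). EOMES, its relative, was at -0.55, IRF4 at -0.53, BATF at -0.65 and IKZF1 at -0.51. MYB, TOX2 and PRDM1 rose by 0.75, 0.62 and 0.47, as did NFIL3, needed for NK development, by 0.89.

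The cytokines were mostly lower, while fewer members of the TNF and chemokine lists fell. Of 15 cytokines, 1 rose, 9 fell and the other 5 did not pass, with a median of -0.44. IFNG was at 116, 104 and 115 CPM in the DMSO libraries and 66.7, 66.3 and 72.3 CPM in the icaritin libraries, a log2 fold change of -0.71 (adjusted p = 1.72e-13, SE 0.0557). IL6 was at -1.31, IL16 at -0.62, CSF1 at -0.37 and TGFB1 at -0.44. In the TNF superfamily, LTB, lymphotoxin beta, was at 151, 139 and 142 CPM in the DMSO libraries and 48.3, 50.7 and 51.5 CPM in the icaritin libraries, a log2 fold change of -1.52 (adjusted p = 8.38e-22, SE 0.0617). LTA, TNFRSF8 (CD30) and TNFSF14 were at -1.12, -0.85 and -0.71. Of 22 tested members 5 rose, among them TNFSF4, described above, at 2.35, and 9 fell. Among 23 chemokines and receptors 2 rose (1 without DMSO replicate 1 or 3 or icaritin replicate 2 or 3) and 9 fell: CCR8 was at -1.20, while CCL3 rose from 17.8, 16.5 and 16.8 CPM to 41.3, 47.0 and 48.0 CPM. CXCR4 was at 0.051 (adjusted p = 0.46). Checkpoint genes were mixed, 5 of 18 risen and 6 fallen. This list and the TNF list stand beside 21.2% risen and 20.8% fallen among all tested genes. CTLA4 rose by 1.98, CD80 by 0.98 and CD38 by 0.63, while CD274 (PD-L1) was at -0.41 and HAVCR2 (TIM-3) at -0.32.

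In the JAK-STAT list 11 of 43 rose, 11 fell and the other 21 did not pass; over all tested genes 21.2% rose and 20.8% fell. The interleukin-2 receptor chains IL2RB and IL2RA were at -0.53 and -0.28, and CISH, a feedback inhibitor induced by STAT5, was at 308, 329.5 and 315 CPM in the DMSO libraries and 167, 173 and 171 CPM in the icaritin libraries. That is a log2 fold change of -0.90 (adjusted p = 4.99e-08, SE 0.0811). STAT6 was at -0.62, and JAK1, JAK2 and STAT3 rose by 0.45, 0.39 and 0.26. STAT5B did not pass. The list of ERK feedback and immediate early genes was also mixed, with 7 of 28 risen (4 without DMSO replicate 2) and 11 fallen: DUSP5, an ERK phosphatase, rose by 1.07, and JUN, JUNB and JUND were at -0.94, -0.65 and -0.60. In the NF-kB list 5 of 24 rose (3 without icaritin replicate 3) and 6 fell, beside 21.2% and 20.8% of all tested genes. The inhibitors NFKBIA and TNFAIP3, both induced by NF-kB, went apart, to -0.60 and 0.85.

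Interferon-stimulated genes encode antiviral proteins and are switched on by interferon receptors. Of 50 tested, 8 rose, 30 fell and the other 12 did not pass, with a median of -0.39. IFI6 was at 109, 101 and 105 CPM in the DMSO libraries and 55.2, 60.4 and 57.4 CPM in the icaritin libraries, and IRF7, the factor that amplifies type I interferon, at 65.4, 71.6 and 65.6 CPM in the DMSO libraries and 30.0, 31.5 and 31.2 CPM in the icaritin libraries. Their log2 fold changes were -0.86 (adjusted p = 4.35e-15, SE 0.0596) and -1.13 (adjusted p = 7.68e-15, SE 0.0795). OAS1, OAS2 and SP110 were at -1.16, -0.82 and -0.79. The members that rose included GBP2 (0.61), IFIT2 (0.36), TRIM22 (0.32), IFIT3 (0.30) and IFIH1, a sensor of viral RNA (0.28). ISG15 was at -0.083 (adjusted p = 0.227). In MHC class I presentation 1 of 19 rose and 11 fell, with NLRC5, its transactivator, at -0.64, while HLA-B and HLA-C did not pass. These class I genes are alike in sequence, and their counts are uncertain. Of 16 class II genes 5 fell, led by HLA-DMA at -0.55 and HLA-DMB at -0.64. Without DMSO replicate 1, DMSO replicate 2 or icaritin replicate 1, 2 class II genes fell, and without icaritin replicate 3, 3 did. Over all tested genes 20.8% fell.

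Redox, zinc and drug-handling genes gave mixed lists. Of 29 NRF2 and redox genes 6 rose and 7 fell, beside 21.2% and 20.8% of all tested genes, and without icaritin replicate 1, 10 rose. GCLM, a subunit of the first enzyme of glutathione synthesis, was at 171, 181 and 183 CPM in the DMSO libraries and 383, 375 and 378 CPM in the icaritin libraries, a log2 fold change of 1.09 (adjusted p = 2.8e-20, SE 0.0499), whereas SRXN1, another common NRF2 target, was at -0.28. Among 21 zinc genes 7 rose and 5 fell. SLC30A1, the zinc exporter, and MT1E rose by 0.84 and 0.83, and MT2A was at 0.11 (adjusted p = 0.221). Of 32 genes that handle the drugs of the GELOX regimen, 10 rose, 9 fell and the other 13 did not pass. The zinc and drug lists stand beside 21.2% risen and 20.8% fallen among all tested genes. DCK, which activates gemcitabine, was at 63.7, 70.0 and 69.3 CPM in the DMSO libraries and 87.0, 92.0 and 89.0 CPM in the icaritin libraries, a log2 fold change of 0.40 (adjusted p = 3.88e-06, SE 0.0662). SLC29A1, its main importer, was at 109, 121 and 115 CPM in the DMSO libraries and 83.1, 92.4 and 87.5 CPM in the icaritin libraries, with -0.39 (adjusted p = 2.99e-07, SE 0.0565). RRM1, a target of gemcitabine, rose by 0.36, ERCC1, which excises platinum adducts, was at -0.33, and GLUL, glutamine synthetase, at -0.39.

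SNT-8 is the line of the series whose response was compared with that of SNT-16 first. The DMSO libraries of the lines differed in 1904 of the 14396 tested genes (13.2%), 848 higher in SNT-16 (5.89%) and 1056 lower (7.34%), and 148 differed at least 2-fold (1.03%; 225 with no filter on low counts). With scaling by library totals alone, 1955 passed and 1260 of these were higher, so this split rests on the scaling. Interferon-stimulated genes were higher in SNT-16: 37 of 50 were above SNT-8 and 1 below, with a median log2 difference of 0.43. ISG15, a ubiquitin-like interferon product, was at 110.1, 112 and 120.0 CPM in SNT-8 with DMSO and at 293, 286 and 286 CPM in SNT-16 with DMSO. The log2 difference was 1.34 (adjusted p = 1e-19, SE 0.0574), and those of IFI6, HERC5 and IFIT2 were 1.38 (adjusted p = 2.03e-19, SE 0.0626), 1.22 (adjusted p = 3.5e-16, SE 0.0710) and 1.23 (adjusted p = 1.71e-14, SE 0.0816). IFIT2 overlaps LIPA in the annotation, at 58.1 CPM. Of the p53 targets 11 were higher in SNT-16 and 0 lower. Sterol genes were lower in 17 cases and higher in 1, heat shock genes in 16 and 0, and cytosolic ribosomal proteins in 25 and 3. IL9, a cytokine, and OTUD5, a deubiquitinase, were also higher in SNT-16, by 1.95 (adjusted p = 9.23e-19, SE 0.0939) and 0.86 (adjusted p = 1.75e-17, SE 0.0454).

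**Figure D4:**
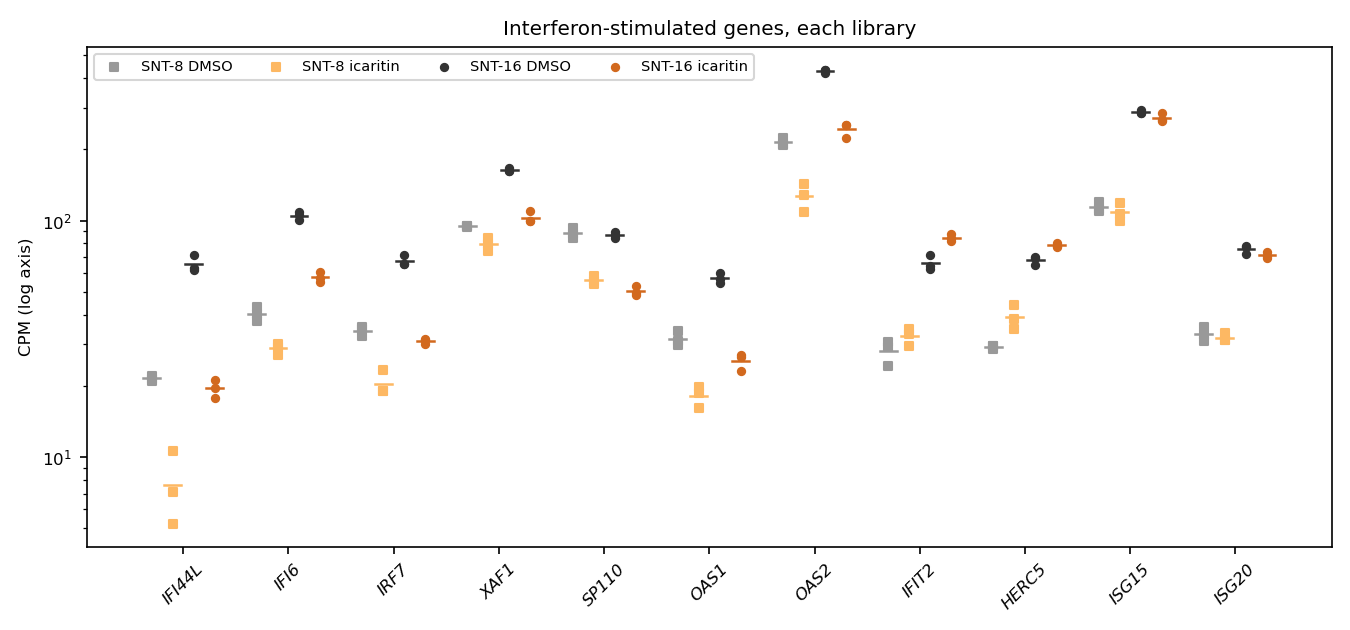
CPM of 11 interferon-stimulated genes in each library of SNT-8 (squares) and SNT-16 (circles), DMSO in grey or black and icaritin in pale or dark orange, on a log axis, with short lines for group means. IFI44L, IFI6, IRF7, OAS1 and OAS2 are higher in SNT-16 than in SNT-8 with DMSO and lower after icaritin in both lines, whereas ISG15 and ISG20 did not pass the threshold in SNT-16.

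The responses of SNT-16 and SNT-8 differed past the threshold in 63 genes (0.438%), 38 with a higher value in SNT-16 (0.264%) and 25 with a lower one (0.174%). With library totals alone 84 passed, 37 of them higher. The count depends on single libraries. Without SNT-8 icaritin replicate 1, 2 or 3 it was 115, 178 or 95, and without SNT-8 DMSO replicate 1 or 3 it was 30 or 28. Leaving out SNT-16 DMSO replicate 1, 2 or 3 gave 33, 25 or 22 genes, and leaving out SNT-16 icaritin replicate 2 or 3 gave 17 or 25. In 35 of the 63, both lines changed in the same direction, and 30 of these changed less in SNT-16. In 6 the directions were opposite, 4 passed only in SNT-16 and 18 only in SNT-8. In all, 52 of the 63 had the smaller absolute change in SNT-16. The share of all tested genes that changed less in SNT-16 was not taken, so these counts describe the 63 genes only. The test used the DMSO libraries of SNT-16 that also enter the control comparison above, so the values stand side by side only.

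IFNG led the differences. In SNT-8 it was at 176, 172 and 169 CPM with DMSO and at 58.8, 57.8 and 54.3 CPM with icaritin, a log2 fold change of -1.60, against -0.71 in SNT-16. The difference was 0.89 (adjusted p = 1.38e-09, SE 0.0789). BBC3, the gene of PUMA, rose by 1.80 in SNT-8 and by 1.07 in SNT-16, a difference of -0.73 (adjusted p = 0.00214, SE 0.122). DUSP5 behaved alike, at 1.64 and 1.07, a difference of -0.57 (adjusted p = 0.000521, SE 0.0865). SERPINB9, the granzyme B inhibitor, was at 0.35 in SNT-8 and -0.18 in SNT-16, opposite directions with a difference of -0.53 (adjusted p = 0.000931, SE 0.0832). Its fall in SNT-16 did not pass without DMSO replicate 2 or icaritin replicate 2 (adjusted p = 0.121 and 0.0523). XAF1, an interferon-stimulated gene linked to cell death, fell further in SNT-16, to -0.67 against -0.25, with a difference of -0.42 (adjusted p = 0.00369, SE 0.0744). MAPK6 and AIM2, a sensor of cytosolic DNA, differed by 0.43 (adjusted p = 0.00281, SE 0.0750) and 0.56 (adjusted p = 0.00303, SE 0.0979); AIM2 overlaps IFI16, at 820.0 CPM.

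**Figure D5:**
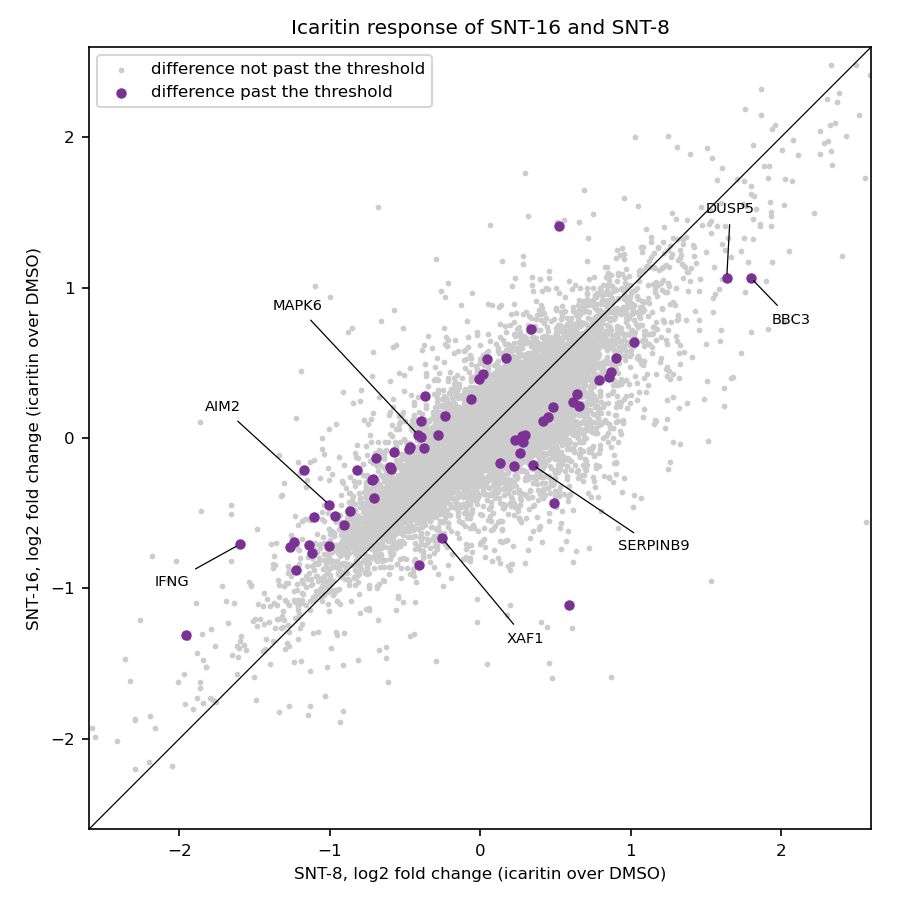
Log2 fold changes of icaritin over DMSO in SNT-8 (x axis) and SNT-16 (y axis) for tested genes at 1 CPM or more in SNT-16 (32 beyond the axis limits are not drawn, none of them among the 63); purple points are the 63 genes whose responses differ past the threshold, and the line marks equal responses. IFNG and AIM2 lie above the line on the left, with smaller falls in SNT-16, and BBC3 and DUSP5 below it on the right, with smaller rises.

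Against SNK-10 the responses differed in 1801 genes (12.5%), 830 with a higher value in SNT-16 (5.77%) and 971 with a lower one (6.74%), and 155 differed at least 2-fold (1.08%; 51 with DESeq2). With library totals alone 1982 passed, 1301 of them higher in SNT-16. In 612 both lines changed in the same direction, with the smaller change in SNT-16 for 421, and in 160 they went opposite ways. A further 389 passed only in SNT-16, 622 only in SNK-10 and 18 in neither. Here too the share of all tested genes that changed less in SNT-16 was not taken. The interferon-stimulated list held 27 genes of 50 with differing responses and the NF-kB list 14 of 24, all with a lower value in SNT-16. The JAK-STAT list held 20 of 43 (18 lower) and the ATF4 list 15 of 33 (10 lower). The lineage factor list held 11 of 23 (10 lower) and the p53 list 14 of 31 (2 lower). The replication list held 15 of 54, all with a higher value in SNT-16.

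XAF1 went opposite ways: it was at 96.8, 100.3 and 104 CPM with DMSO and 126, 131 and 128 CPM with icaritin in SNK-10, and at 167, 161 and 161 CPM in the DMSO libraries and 99.5, 109 and 99.5 CPM in the icaritin libraries in SNT-16. The log2 fold changes were 0.35 and -0.67, a difference of -1.02 (adjusted p = 1.84e-12, SE 0.0729). PIM1, a kinase induced by STAT factors, was at 0.62 in SNK-10 and -0.29 in SNT-16, a difference of -0.90 (adjusted p = 7.75e-12, SE 0.0691). GCLM rose in SNT-16, by 1.09, and was at 0.17 in SNK-10, a difference of 0.91 (adjusted p = 4.68e-11, SE 0.0768). CTH rose in both, by 2.84 in SNK-10 and 1.57 in SNT-16, a difference of -1.27 (adjusted p = 4.68e-11, SE 0.106). STAT5A rose in SNK-10 by 0.75 and did not pass in SNT-16, at -0.025; the difference was -0.77 (adjusted p = 1.24e-10, SE 0.0672), and the gene overlaps STAT5B at 163 CPM. ARID5A, which stabilises cytokine RNA, was at 0.32 in SNK-10 and -0.44 in SNT-16, a difference of -0.76 (adjusted p = 1.7e-10, SE 0.0674).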

How the data were processed

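RNA was extracted with Trizol and made into libraries with an MGIEasy kit, per the labels' protocols. The authors deposited 1 table per library with expected counts and FPKM per gene, per the file headers; Bowtie2 and HISAT are listed, without versions, per the submitters' processing notes. The build is not given in the sources used here, nor is the counting tool or its use of strand. Reads of overlapping genes therefore cannot be told apart. Levels of overlapping partners were looked up only for genes chosen by the rules below. Of these, ARRDC3, CD80, CISH, FAS, LPCAT3, RAD54L, SP110 and SYVN1 have a partner at 10% of their level or more. So do TNFRSF10B, TNFSF4, TSPOAP1, TYMS, WIPI1, ZAP70 and those whose partner is named beside them. Further named list members can overlap other genes too, as CCNE2 does with INTS8 and NDUFAF6. Gene IDs were matched to symbols with RefSeq's GRCh38.p14 table (21559 of 21662 by ID); a gene missing from a file counted as 0.

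The expected counts deposited by the authors were rounded and fitted with edgeR 4.0.16 (R 4.3.3, limma 3.58.1): 18 libraries, 6 group means, TMM factors, filterByExpr (minimum count 10, minimum total 15) and the robust quasi-likelihood test, with 12 residual degrees of freedom and Benjamini-Hochberg adjustment over 14396 genes at 0.05. The SE was derived from the F statistic, as the size of the log2 fold change over the root of F. Differences between lines are interaction contrasts in this fit. FPKM values, as deposited, served only for levels between genes. The script was tested on simulated data made from the SNT-16 comparison (14251 genes): of 50 genes changed 1.25-fold 72% were called, and of 50 changed 1.5-fold 98%. The changed genes were drawn at 10 CPM or more, and no other gene differed between the simulated SNT-16 groups. Replicates of 1 group differed beyond counting noise, so none was treated as a duplicate.

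Named genes are PLK1, the 15 largest rises and falls, up to 5 members of each list by smallest p, up to 2 little-changed members of each list at 50 CPM or more, the 8 smallest p of each difference at 10 CPM or more, and the 10 highest FPKM; further list members were chosen after their values were seen. Some list members and differences are not reported here. The members and lists were chosen with earlier results of these data known. Promoters (27305) are RefSeq's on GRCh38.p14, with none from chromosome 8. Alternatives were other scaling, no low-count filter, mitochondrial genes removed, fewer libraries in the fit, a replicate block, DESeq2 1.42.0 and leaving out each library.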

Additional observations from a re-analysis of the deposited data

Results flagged for a closer look

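The test of the difference itself marked 63 genes whose responses in SNT-16 and SNT-8 differed and 1801 for SNT-16 and SNK-10. Among the genes whose difference from SNT-8 is described above, the response of SNT-16 minus that of SNT-8, on the log2 scale, was 0.89 for IFNG. It was 0.56 for AIM2, 0.43 for MAPK6, -0.73 for BBC3, -0.57 for DUSP5, -0.53 for SERPINB9 and -0.42 for XAF1. Other genes named above also passed, among them CCL3 (0.89), CCNE2 (0.48), TNFSF14 (0.43), TNFSF10 (0.38) and STAT5A (-0.31).

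Among the genes whose difference from SNK-10 is described above, the response of SNT-16 minus that of SNK-10 was 0.91 for GCLM. It was -0.76 for ARID5A, -1.27 for CTH, -0.90 for PIM1, -0.77 for STAT5A and -1.02 for XAF1. Further genes named above passed this test too, among them TP53I3 (1.80), KLHDC7B (1.39), CCNG2 (-1.10), IFI44L (-1.03) and KLHL24 (-0.91). The groups of 3 libraries are too small for a test of single outlying libraries.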

How the results depend on the processing

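The number of genes that passed in SNT-16 ran from 5343 with DESeq2 to 6652 with the 6 SNT-16 libraries alone, against 6051, and lay between 5379 and 5471 when a library was left out. The total past the threshold moved by over 1.5 times for the difference from SNT-8: 279 genes passed with no filter on low counts and 115 with DESeq2, against 63, and between 17 and 178 when a library was left out. The difference from SNK-10 lay between 1405 and 2254 genes and that of the DMSO controls between 1301 and 2109, each within 1.5 times its count; by direction, library totals put 1301 above 0 and 695 below 0, respectively, against 830 and 1056. Scaling by library totals alone put 3347 of 6143 genes of the SNT-16 response above 0. Other named genes below the threshold passed in a setting: ISG15 and MT2A in the 6 SNT-16 libraries alone, SLC2A1 there and with library totals. FANCF did not pass with library totals (adjusted p = 0.0612) or DESeq2 (0.0717). A value near 0 changed sign: when a library was left out, ASNS lay between -0.53 and 0.15 (above 0 without icaritin replicate 2). Among the gene lists, library totals gave 11 risen NRF2 genes, 6 risen oxidative phosphorylation genes and 5 fallen granule genes, and the 6 libraries alone gave 10, 6 and 10 fallen NF-kB genes in place of 6. For these changes the cause was not tested.

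With the replicate block, 5819 genes passed in SNT-16, 47 in the difference from SNT-8, 1536 in that from SNK-10 and 1794 between the DMSO controls. Same-numbered libraries of SNT-16 deviated from their group means with correlations of 0.058, 0.036 and -0.048 over 9190 genes. Differently numbered pairs lay between -0.091 and 0.067. Values this close to 0 cannot show whether same-numbered libraries were grown or processed together. With between 9629842 and 9921331 counts per library, genes under 1 CPM rest on few counts, and small changes may be missed. In the simulated data 72% of the 1.25-fold changes were called. Few genes changed there, so the share missed in the real data was not measured.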

Other observations

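The genes with the highest FPKM in the DMSO libraries of SNT-16 included RNR2, ACTB, CD74, GAPDH, FTH1, B2M, RPS2 and RPS27. ACTB, cytoplasmic actin, stood at 7869.6, 8346 and 8184 CPM in the DMSO libraries and 5184, 5739.9 and 5758 CPM in the icaritin libraries, a log2 fold change of -0.55 (adjusted p = 2.02e-12, SE 0.0473). The groups did not overlap. FTH1, which stores iron, rose by 0.26, while CD74, the chaperone of MHC class II molecules, and B2M, the light chain of class I, did not pass.

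Among the markers of other cell types, MZB1, a plasma cell chaperone of the endoplasmic reticulum, was at 163, 161 and 158 CPM in the DMSO libraries and 85.3, 91.2 and 89.8 CPM in the icaritin libraries. It held most of the summed B and plasma cell level and fell by a log2 fold change of -0.86 (adjusted p = 4.78e-10, SE 0.0742). Of 8 tested stromal, endothelial and epithelial markers 2 rose, COL1A1 and PDGFRB; COL1A2 and CDH1 did not pass, and COL3A1 was at 0 in SNT-16. COL1A1, a collagen, went from a mean of 3.30 ± 0.510 CPM to 8.32 ± 0.347 CPM (SD, n = 3 each), a rise of 1.33 (adjusted p = 5.56e-08, SE 0.176) by edgeR's quasi-likelihood test. Whether such RNA came from the lymphoma cells was not tested.

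The list of the aryl hydrocarbon receptor, which binds many flavonoids, the sterol receptor LXR and their targets had 10 tested members. Of these, 1 rose, 3 fell and the other 6 did not pass. The aryl hydrocarbon receptor target TIPARP was at -0.14 (adjusted p = 0.25). The members that fell were SCD, at -0.65, NR1H2, an LXR gene, at -0.28, and LPCAT3, a phospholipid enzyme. MYLIP, an LXR target, was the member that rose, a call lost with DESeq2 and without any library but DMSO replicate 2 (adjusted p between 0.0555 and 0.142).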
